A study of Mus musculus with 24 samples.

Results

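The metabotropic glutamate receptors read here were Grm2, Grm3, Grm4, Grm5, Grm7 and Grm8, followed in the hippocampus of mice that had or had not undergone contextual fear conditioning. All array probes whose annotated gene name was one of these 6 symbols were taken, which gave 12 probes out of 41174 for 6 of the 27827 gene names on the array: 4 for Grm5, 3 for Grm7, 2 for Grm2 and 1 each for Grm3, Grm4 and Grm8. Of these, 11 were detected well enough to be tested, among 38772 probes in all, and each of the 6 genes kept at least 1 probe. By receptor group, the 12 probes were 4 for group I, 3 for group II and 5 for group III.

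The study asked how age changes the transcriptional response to learning. Hippocampi of 24 C57Bl/6 mice were measured, 1 mouse per Agilent 1-colour array, in 6 groups of 4. Control mice aged 3 months (young) or 16 months (old) were handled only. Fear mice of either age spent 3 min in a conditioning chamber, received a foot shock of 0.7 mA for 2 s, and were taken 1 h later. Young context mice had the chamber without a shock, and young shock-context mice were shocked on entry and explored afterwards. Whole hippocampi were used, so less RNA per cell and fewer cells of a type cannot be told apart in any value below.

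Metabotropic glutamate receptors are G protein-coupled receptors that sense glutamate through a large extracellular domain and act as dimers. Group I receptors such as Grm5 couple to Gq and phospholipase C, lie mostly around the postsynaptic density and take part in hippocampal synaptic plasticity. Group II (Grm2, Grm3) and group III receptors (Grm4, Grm6, Grm7, Grm8) couple to Gi/o proteins, lower cyclic AMP and largely restrain transmitter release, with Grm3 also abundant in astrocytes and Grm7 placed at the active zone of the presynaptic terminal.

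The probes are 60-base DNA sequences, given 5′ to 3′ with their positions in build mm9 as the scanner files list them. The 4 Grm5 probes come first because they gave different answers for the same gene. A pair lay near the 5′ end of the gene on the + strand of chromosome 7, at 94751387 to 94751446 and 94751530 to 94751589, with 83 bases between them.
Grm5 A_52_P675611: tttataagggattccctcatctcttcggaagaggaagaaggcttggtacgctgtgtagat
Grm5 A_52_P181394: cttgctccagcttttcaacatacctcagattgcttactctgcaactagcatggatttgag
The other pair lay 528509 bases further 3′, at 95280099 to 95280158 and 95280993 to 95281052, with 834 bases between them. Only the first 30 bases of each are shown.
Grm5 A_51_P465591: aaccaagaaaaccagtgcaagatttctgga
Grm5 A_51_P333441: agaaggaggtattctataaatttaaagttc

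Both 3′ probes were annotated to the transcript NM_001143834 and both 5′ probes to NM_001081414. Exon, intron and UTR assignments in mm9 were not used here. No base is set in capitals, since no motif or site was singled out within a probe.

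The 3 Grm7 probes are shown because they tile the gene from 5′ to 3′ on the + strand of chromosome 6 and also differed in response. The first matched the genome between 111016897 and 111030371, a span of 13475 bases, and the third between 111445847 and 111516024, a span of 70178 bases, so these 60-base probes are split by at least 1 intron each. The second lay between them at 111196169 to 111196228.
Grm7 A_52_P607936: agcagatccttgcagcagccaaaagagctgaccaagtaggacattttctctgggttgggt
Grm7 A_52_P551544: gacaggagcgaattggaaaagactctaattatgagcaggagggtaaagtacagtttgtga
Grm7 A_52_P551129: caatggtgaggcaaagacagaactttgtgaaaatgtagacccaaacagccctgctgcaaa

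For Grm2, the probes disagree on strand. A_52_P342888 lies on the - strand of chromosome 9 at 106553374 to 106553433, and A_51_P414219, designed on the cDNA AK015353, lies on the + strand at 106545189 to 106545248.
Grm2 A_52_P342888: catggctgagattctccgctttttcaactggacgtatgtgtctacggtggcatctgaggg
Grm2 A_51_P414219: gcggcgcaggttaaatgagaaaagtttatc
The second sequence is again the first 30 bases. It was well above background on 0 of 24 arrays and is the member that could not be tested, so Grm2 was read from A_52_P342888, which older files of the series list under an Ensembl transcript instead of a symbol. The remaining single probes lay on the - strand, Grm3 at chromosome 5, 9485369 to 9485428, Grm4 at chromosome 17, 27572067 to 27572126, and Grm8 at chromosome 6, 27225620 to 27225679.

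Levels are log2 signals relative to the 75th percentile of the same array, so a higher value is a brighter spot. Brightness depends on the probe as well as on its RNA, so levels of different probes are not read as a difference in expression. A scan run here is a set of arrays whose file headers name the same genome build. It labels a batch of arrays and is not a recorded scanning session. A first scan run held the 16 arrays of control and fear mice. Their 75th percentiles lay at signals from 756.6 to 2137.1, and they detected 86.2 to 93.9% of the probes. A second run held the 8 arrays of context and shock-context mice (3100.6 to 8368.9, and 75.1 to 81.4%). A probe counts as detected where the scanner software marks it well above background. Changes are differences of log2 group means ± SE of a limma fit with 4 arrays per group, with p-values adjusted by Benjamini-Hochberg over all probes tested and called at 0.05. The number of arrays limits the precision.

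In young mice, fear conditioning was accompanied by changes in Grm5 and Grm7 probes. Of the 11 receptor probes, 3 rose (1 of Grm5, 2 of Grm7) and 1 of Grm5 fell. The share called among all probes was 44.6%, so 4 of 11 is no more than the array as a whole gave. The median change over the 11 probes was 0.20, beside -0.27 over all probes. The probes of Grm2, Grm3, Grm4 and Grm8 did not pass.

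**Figure D1:**
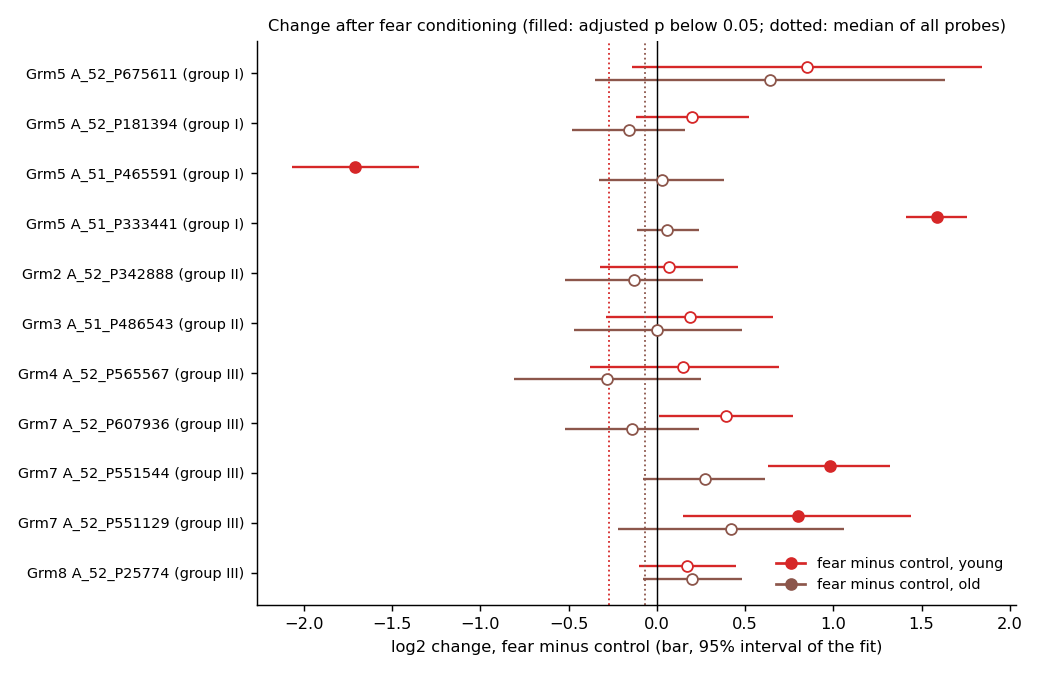
Log2 change (fear minus control) of the 11 tested receptor probes in young and old mice, with the 95% interval of the limma fit as bars, filled points for adjusted p below 0.05 and dotted lines at the median of all probes. The neighbouring Grm5 probes A_51_P465591 and A_51_P333441 lie at -1.71 and 1.59 in young mice and at 0.03 and 0.06 in old mice.

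Grm5, the group I receptor gene, gave opposite answers at its 3′ end. A_51_P333441 read -1.64, -1.56, -1.80 and -1.45 on the young control arrays and -0.08, -0.06, 0.00 and 0.03 on the young fear arrays. The 4 fear arrays lay close together and above every control array. The change was 1.59 ± 0.08, a 3.00-fold rise (adjusted p = 1.47e-10).

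The probe 834 bases upstream fell on the same arrays. A_51_P465591 read 2.57, 2.57, 2.93 and 2.84 in young controls and 0.99, 0.97, 1.04 and 1.07 in young fear mice, and the groups did not overlap. The change was -1.71 ± 0.17, a 3.27-fold fall (adjusted p = 1.27e-07). Each slide carried 1 array of each control and fear group, so the change can also be read within slides: it ran from 1.47 to 1.80 for A_51_P333441 and from -1.89 to -1.58 for A_51_P465591. Both calls held in every alternative run, with changes of 1.26 to 1.73 over 19 alternatives for the first probe and -1.76 to -1.57 over 20 for the second.

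The 5′ pair of Grm5 moved less. A_52_P181394 read -1.19, -1.03, -0.73 and -0.88 in young controls and -0.82, -0.73, -0.83 and -0.64 in young fear mice, groups that overlapped, with a change of 0.20 ± 0.15 (adjusted p = 0.294). A_52_P675611 read -2.07, -2.57, -2.65 and -1.68 in controls and -1.30, -1.33, -1.40 and -1.55 in fear mice. Its groups did not overlap, yet the change of 0.85 ± 0.48 did not pass (adjusted p = 0.151). The fit shares 1 estimate of the spread over all groups, and an old control array lay far off for this probe, at -4.90. Fitted on the young control and young fear arrays alone, the same change passed (adjusted p = 0.0119). The whole gene therefore has no single direction in these data: of 4 probes, 1 rose, 1 fell and 2 were not called.

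**Figure D2:**
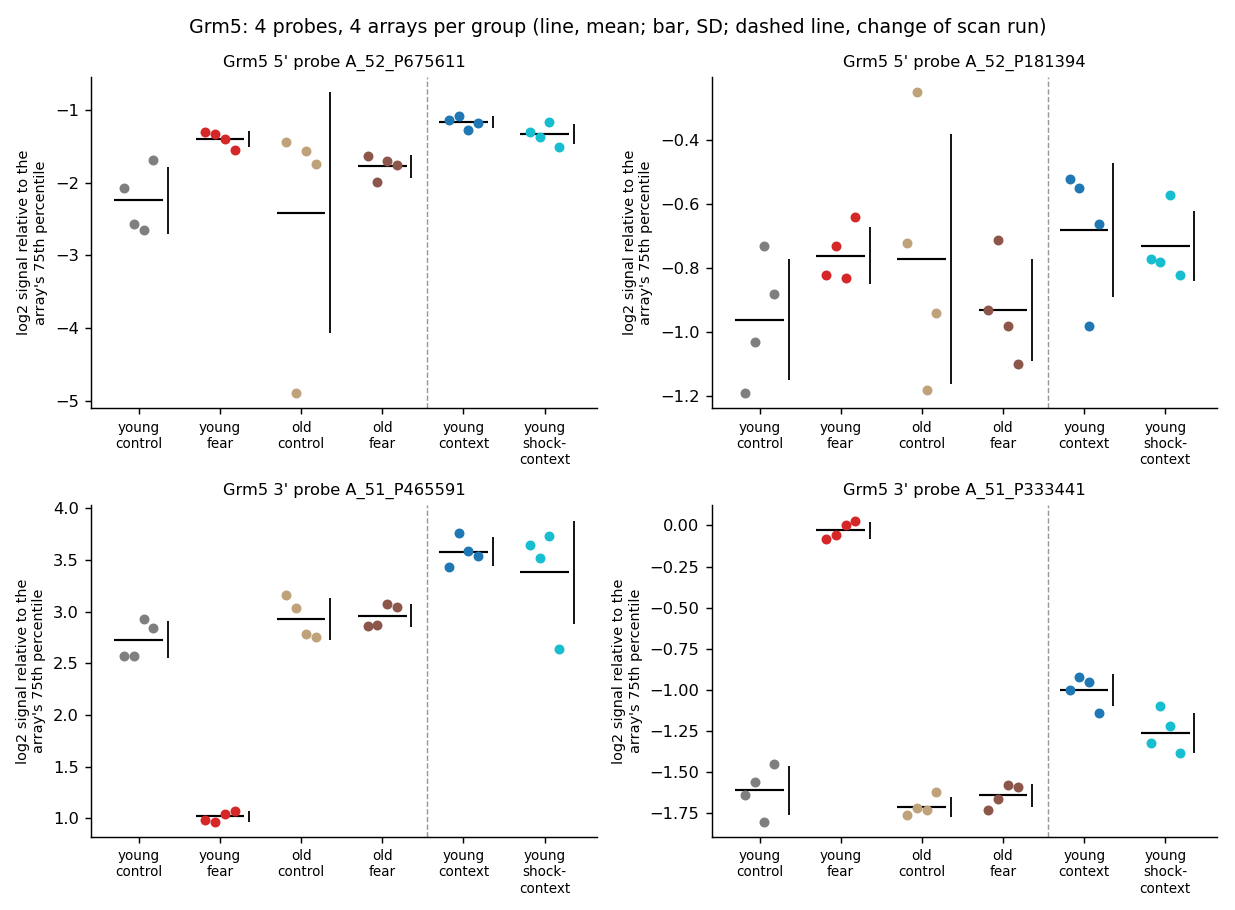
Log2 signal relative to the array's 75th percentile for the 4 Grm5 probes on all 24 arrays, with group means (lines) and SD (bars); the dashed line marks the change of scan run. The 4 young fear arrays lie below the other 20 for A_51_P465591 (0.97 to 1.07 against 2.57 to 3.76) and above them for A_51_P333441 (-0.08 to 0.03 against -1.80 to -0.92).

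Opposite calls within a gene were common in this comparison. Of 3006 genes with at least 2 called probes, 1167 (38.8%) held both a rise and a fall, so Grm5 is 1 of many. Another transcript at the locus, AK048001, read by a probe on the same strand between the 5′ and 3′ pairs of Grm5, fell by 0.74 ± 0.27 (adjusted p = 0.0334). The spots surrounding the 3′ probes on the array had a median change of -0.26 around each, close to the -0.27 of all probes. Around the 5′ probe A_52_P675611 the median was 0.13.

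Other tissue markers differed between the same arrays. All 9 choroid plexus markers measured were lower in young fear mice, with changes of -4.89 to -1.89, and their mean level was 0.89 to 1.70 on young control arrays and -2.77 to -1.47 on young fear arrays. Of 11 thalamus markers 8 were higher and 1 was lower, with mean levels of -0.38 to -0.13 in young controls and 0.67 to 0.85 in young fear mice. Of 7 CA pyramidal cell markers 5 were lower and 0 higher, and of 10 astrocyte markers 2 were higher and 4 lower. Of 6 dentate granule cell markers 1 was higher and 2 lower, and of 8 interneuron markers 2 were higher and 2 lower. Of 3 neuron markers 1 was higher and 0 lower, of 6 oligodendrocyte markers 2 and 2, and of 6 microglia markers 1 and 1. These counts stand beside the 44.6% of all probes called. On every array 8 of the 9 choroid plexus markers and all thalamus, pyramidal cell and astrocyte markers were well above background. The part of tissue makeup in the receptor changes was not tested.

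Grm7, a presynaptic group III receptor gene, rose at a pair of its 3 probes. The middle probe, A_52_P551544, read -3.98, -3.86, -3.67 and -3.70 in young controls and -2.70, -2.78, -2.96 and -2.85 in young fear mice, with no overlap. The change was 0.98 ± 0.17, a 1.97-fold rise (adjusted p = 6.62e-05), and 0.71 to 1.28 within slides. With normexp background correction in place of the scanner's own correction the change was 0.20 and did not pass (adjusted p = 0.758). The normexp setting used throughout also adds an offset of 50 to each signal, which weighs more on dim probes and dim arrays. The median signal of this probe was 80.1 in young control and 246 in young fear mice. The part of the offset in the normexp values was not tested.

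The most 3′ Grm7 probe, A_52_P551129, read -2.09, -2.15, -2.64 and -1.95 in young controls and -1.41, -1.39, -1.37 and -1.46 in young fear mice. The young fear arrays lay above all other 20 arrays of the study, which reached -1.92. The change of 0.80 ± 0.31 passed narrowly (adjusted p = 0.0412) and was 0.49 to 1.27 within slides. It held in 9 of 20 alternatives and was lost with the replicate block, here also the slide (adjusted p = 0.0619), with quantile normalization (0.0538), with normexp correction (0.304), with array pairs as a random block (0.177), without each of young control arrays 1, 2 and 3 in turn (0.0513, 0.0633 and 0.127), and without each of the 4 young fear arrays in turn (0.0637 to 0.0722).

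The most 5′ probe, A_52_P607936, read -3.01, -3.40, -2.80 and -2.65 in young controls and -2.54, -2.32, -2.72 and -2.73 in young fear mice. These groups overlapped and the change of 0.39 ± 0.18 did not pass (adjusted p = 0.0874). It did pass with quantile normalization (0.61, adjusted p = 0.005), with median scaling (0.53, adjusted p = 0.0135), with the deposited values (0.61, adjusted p = 0.012) and without young control array 4 (0.49, adjusted p = 0.0443). The change was positive in every alternative run, down to 0.03 with normexp correction, and so were those of the other Grm7 probes.

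**Figure D3:**
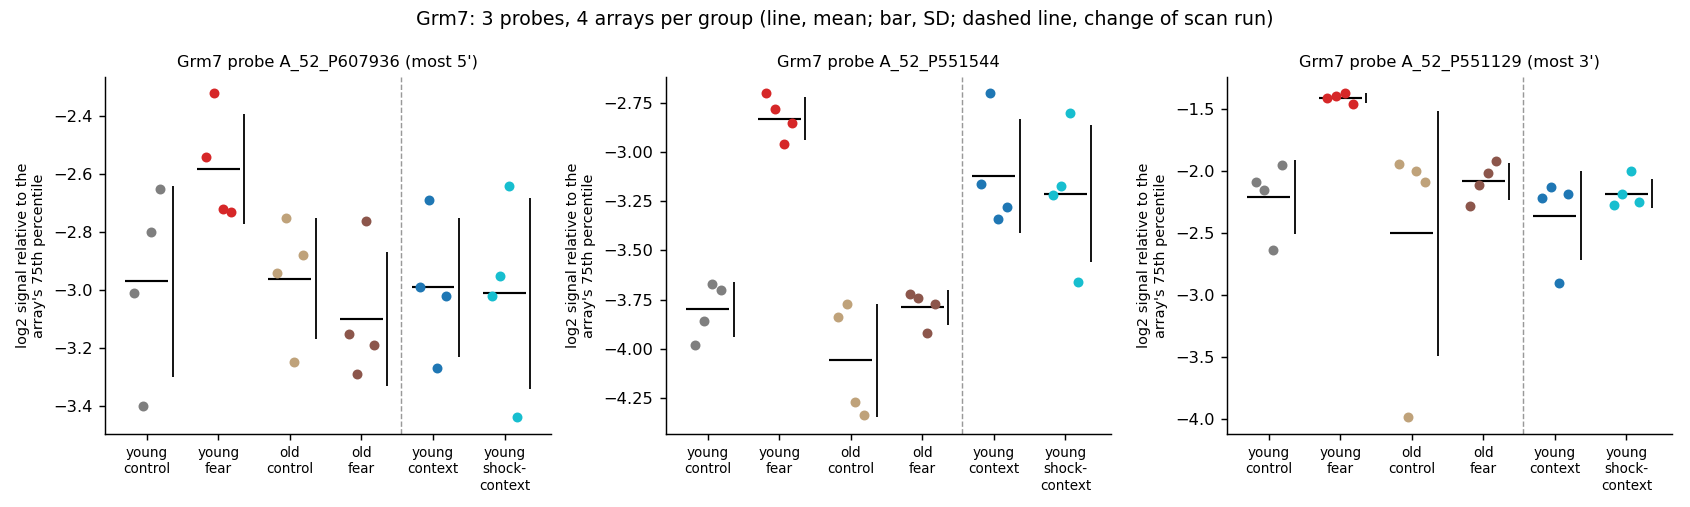
Log2 signal relative to the array's 75th percentile for the 3 Grm7 probes, ordered 5′ to 3′, on all 24 arrays with group means (lines) and SD (bars). For A_52_P551129 the young fear arrays (-1.46 to -1.37) lie above all others, and old control array 2 lies far below its group at -3.99.

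An array region with dim spots touched the Grm5 and Grm7 values. On old control array 2, the deviation from the mean of the group's other 3 arrays was -1.98 for Grm7 A_52_P551129 and -3.32 for Grm5 A_52_P675611. The tested probes within 10 rows and 3 columns of these spots were low on the same array too, with median deviations of -1.21 over 135 probes for Grm7 and -1.52 over 129 for Grm5, against 0.20 over the whole array. Among these neighbours 54.1% and 62.8% lay more than 1 below their group, against 5.18% of all probes. Young control array 3 showed a smaller drop around A_52_P551129 (probe -0.58, neighbours -0.68), which is the array without which its training change was 0.65 (adjusted p = 0.127). In young fear against young control mice the neighbours of A_52_P551129 had a median change of 0.06, above the -0.27 of all probes, beside its own 0.80. Their part in that change was not tested. The neighbours of the 3′ Grm5 probes on old control array 2 were at 0.03 and -0.03.

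**Figure D4:**
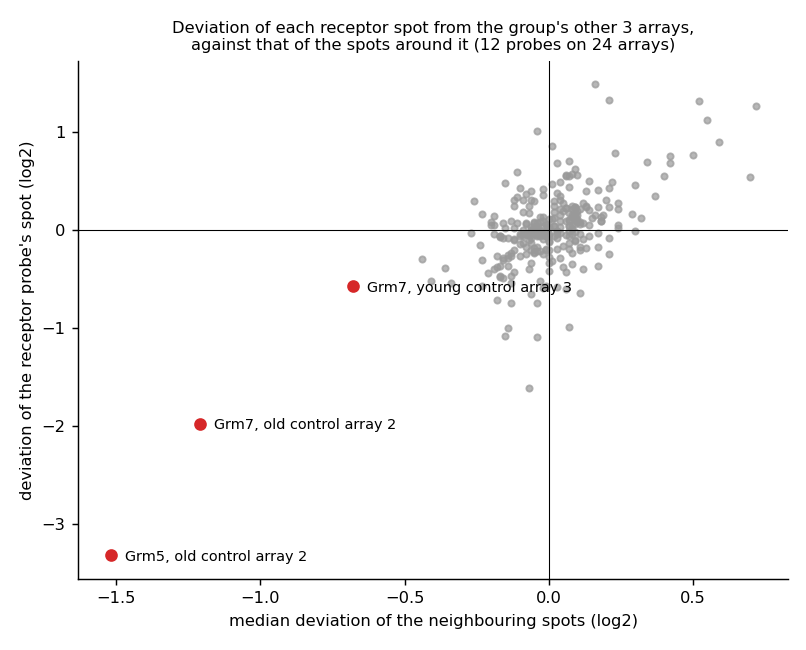
Deviation of each receptor probe's spot from the mean of its group's other 3 arrays (vertical, log2) against the median deviation of the spots within 10 rows and 3 columns (horizontal, log2), for 12 probes on 24 arrays, 288 points in all. The 3 marked points are low together with their neighbours: Grm5 A_52_P675611 and Grm7 A_52_P551129 on old control array 2, and Grm7 A_52_P551129 on young control array 3. Of the 288 neighbourhoods, 8 had a median more than 0.5 from that of their array. Among these, Grm2 A_51_P414219 on old control array 2 was high with its neighbours, at 1.26 and 0.72.

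The group II genes and the other group III genes did not pass in young mice. Grm2, a presynaptic autoreceptor gene, read -3.37, -3.46, -2.63 and -2.58 in young controls and -3.16, -2.92, -2.77 and -2.91 in young fear mice, a change of 0.07 ± 0.19 (95% interval -0.32 to 0.46, adjusted p = 0.763). Grm3 read 1.17, 1.54, 0.47 and 0.64 against 1.59, 1.45, 0.68 and 0.84, a change of 0.19 ± 0.23 (-0.29 to 0.66, adjusted p = 0.508). Within the control and fear groups the arrays of Grm3 fell into a higher and a lower pair: arrays 1 and 2 lay above arrays 3 and 4 in young control, young fear and old fear mice, and below them in old control mice. Grm2 in young controls was split the other way, with arrays 1 and 2 low.

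Grm4 read -4.22, -4.84, -4.19 and -3.87 in young controls and -3.88, -3.97, -4.14 and -4.52 in young fear mice, with a change of 0.15 ± 0.26 (-0.38 to 0.69, adjusted p = 0.628). Grm8 read -1.86, -1.93, -1.86 and -1.92 against -1.54, -1.42, -1.90 and -2.01, with a change of 0.17 ± 0.13 (-0.10 to 0.45, adjusted p = 0.285). All 4 intervals leave out changes as large as those of the 3′ Grm5 probes, in either direction. At the Grm2 locus, the transcript AK034263, on the same strand as the tested Grm2 probe, fell by 0.73 ± 0.16 (adjusted p = 0.00104).

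**Figure D5:**
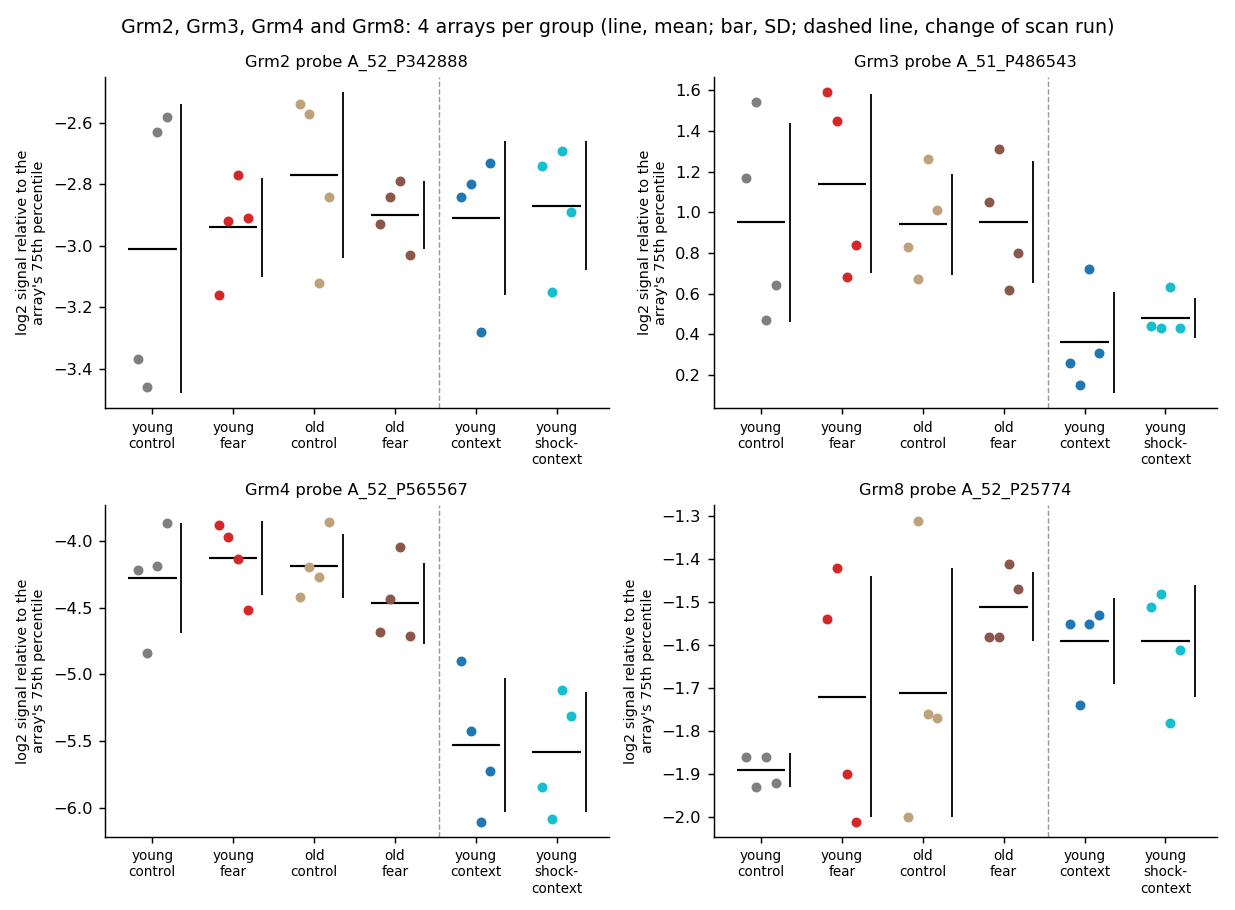
Log2 signal relative to the array's 75th percentile for Grm2, Grm3, Grm4 and Grm8 on all 24 arrays with group means (lines) and SD (bars). The control and fear groups overlap for each gene, and Grm4 lies lower in both groups right of the dashed line, which form the second scan run.

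In old mice, fear conditioning was accompanied by no called change of any receptor probe. By limma 0 of 11 passed at an adjusted p of 0.05, where 0.126% of all probes did and 5155 of 38772 had an unadjusted p under 0.05. The 3′ Grm5 probes lay near their control level. A_51_P333441 read -1.76, -1.72, -1.73 and -1.62 in old controls and -1.73, -1.66, -1.58 and -1.59 in old fear mice (change 0.06 ± 0.08, 95% interval -0.11 to 0.24). A_51_P465591 read 3.16, 3.03, 2.78 and 2.75 against 2.86, 2.87, 3.07 and 3.04 (0.03 ± 0.17, interval -0.33 to 0.38). Both intervals leave out the changes seen in young mice. The choroid plexus markers, which fell in young fear mice, had 0 of 9 called here and mean levels of 0.78 to 1.83 in old controls and 0.99 to 1.45 in old fear mice, while 5 of 11 thalamus markers were higher (mean levels -0.43 to 0.23 against 0.63 to 1.17).

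Grm7 in old mice read -3.84, -3.77, -4.27 and -4.34 in controls and -3.72, -3.74, -3.92 and -3.77 after training at A_52_P551544 (0.27 ± 0.17, adjusted p = 0.482). At A_52_P551129 the old control values were -1.94, -3.99, -2.0 and -2.09 and the old fear values -2.28, -2.11, -2.01 and -1.92 (0.42 ± 0.31, adjusted p = 0.556). The third probe, A_52_P607936, gave -0.14 ± 0.18 (adjusted p = 0.762). Changes of the remaining receptors lay between -0.28 ± 0.26 for Grm4 and 0.20 ± 0.13 for Grm8, with Grm2 at -0.13 ± 0.19 and Grm3 at 0.00 ± 0.23. The 5′ Grm5 probes gave -0.16 ± 0.15 and 0.64 ± 0.48, the second on the dim region of old control array 2.

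Whether the response to training differed with age was tested directly, as the training change at 16 months minus that at 3 months. Here 1 receptor probe of 11 was higher and 2 were lower, where 25.9% of all probes were called. For Grm5 the difference was -1.52 ± 0.12 at A_51_P333441 (adjusted p = 1.53e-07) and 1.74 ± 0.24 at A_51_P465591 (adjusted p = 2.83e-05), and both held in every alternative run (27 and 28). For Grm7 A_52_P551544 it was -0.71 ± 0.23 (adjusted p = 0.0291), a call that held in 20 of 27 alternatives. It was lost with normexp correction (-0.19, adjusted p = 0.862) and without any of 6 arrays taken singly: young control 1 or 2, old control 1 or 2, young fear 1 and old fear 3 (adjusted p = 0.0512 to 0.0642).

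The dim region on old control array 2 mattered for 2 further probes. Without that array, the age difference was -0.87 at Grm7 A_52_P551129 (adjusted p = 0.00648) and -1.04 at Grm5 A_52_P675611 (adjusted p = 0.00241), both called, where with it they were -0.37 ± 0.44 (adjusted p = 0.588) and -0.21 ± 0.67 (adjusted p = 0.861). In young fear against young control mice, spots around these 2 probes had median changes of 0.06 and 0.13, beside -0.27 of all probes. The part of these neighbourhoods in the age differences was not tested. The most 5′ Grm7 probe was at -0.53 ± 0.26 (adjusted p = 0.144) and passed with quantile normalization (-0.68, adjusted p = 0.0357). The age differences of Grm2 (-0.20 ± 0.26), Grm3 (-0.18 ± 0.32), Grm4 (-0.44 ± 0.36) and Grm8 (0.02 ± 0.19) did not pass.

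Age alone was not accompanied by a called receptor change in handled mice. Old and young controls differed at 0 of 11 probes by limma, where 0.547% of all probes were called and 3547 had an unadjusted p under 0.05. The receptor differences lay between -0.29 ± 0.31 at Grm7 A_52_P551129 and 0.24 ± 0.19 at Grm2, and those of the 3′ Grm5 probes were -0.09 ± 0.08 and 0.20 ± 0.17. All adjusted p-values of the 11 probes were at least 0.75.

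After training the ages did differ. In old fear against young fear mice 1 receptor probe was higher and 3 were lower, where 39.9% of all probes were called. Grm5 A_51_P465591 was 3.84-fold higher (1.94 ± 0.17, adjusted p = 2.83e-08) and A_51_P333441 3.06-fold lower (-1.61 ± 0.08, adjusted p = 8.01e-11) in old fear mice, without overlap. All 3 Grm7 probes were lower on every old fear array than on any young fear array: A_52_P551544 by -0.96 ± 0.17 (adjusted p = 8.44e-05), A_52_P607936 by -0.52 ± 0.18 (adjusted p = 0.0264) and A_52_P551129 by -0.67 ± 0.31, which did not pass (adjusted p = 0.0927). The SD of A_52_P551129 was 0.15 in old fear and 0.04 in young fear mice. It was 0.99 in old controls, with an array at -3.99, and these share the fit's estimate of the spread. With the compared arrays alone, 6 receptor probes were called in this comparison. With normexp correction A_52_P551544 and A_52_P607936 turned to 0.13 and 0.27 and neither passed. The A_52_P607936 call held in 12 of 19 alternatives and was also lost when array pairs were fitted as a random effect (adjusted p = 0.0688), and without young fear array 1 or 2 or old fear array 1, 2 or 4 taken singly (0.0544 to 0.0886). This comparison shares its young fear arrays with the comparison at 3 months and is not separate evidence.

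Context and shock-context mice, the controls for chamber and shock given apart, were compared with each other within the second scan run. By limma 0 of 11 receptor probes passed, as did 0% of all probes (0 of 38770, with 2188 at an unadjusted p under 0.05). Grm5 A_51_P333441 read -1.0, -0.92, -0.95 and -1.14 in context mice and -1.32, -1.10, -1.22 and -1.38 in shock-context mice, a difference of 0.25 ± 0.08 (unadjusted p = 0.00695, adjusted p = 0.88). A_51_P465591 read 3.43, 3.76, 3.59 and 3.54 against 3.64, 3.52, 3.73 and 2.64 (0.20 ± 0.17). The lowest shock-context array, at 2.64, lay below the other 3, which were between 3.52 and 3.73. All other receptor differences lay between -0.18 ± 0.31 and 0.17 ± 0.48.

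Comparisons of these mice with the control and fear mice cross the scan runs, so group and run cannot be told apart in them. Against young controls, 4 receptor probes were higher and 2 lower in context mice (68.8% of all probes called), and 3 were higher and 1 lower in shock-context mice (65.4%). Young fear mice were higher at 5 probes and lower at 1 against context mice (65.9%), and higher at 6 and lower at 1 against shock-context mice (64.9%). The counts are near or below the shares of the whole array, and the comparisons share arrays.

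The 3′ Grm5 probes of young fear mice stood apart from those groups as well. The young fear mean of A_51_P333441 was 0.97 ± 0.08 above context and 1.23 ± 0.08 above shock-context mice, and that of A_51_P465591 was lower, at -2.56 ± 0.17 and -2.36 ± 0.17. Set in order, the group means of A_51_P333441 ran from -1.71 ± 0.06 (SD, n = 4) in old control, -1.64 ± 0.07 in old fear and -1.61 ± 0.15 in young control, which lie within each other's spread, through -1.26 ± 0.12 in shock-context and -1.0 ± 0.10 in context to -0.03 ± 0.05 in young fear mice. Those of A_51_P465591 ran from 1.02 ± 0.05 in young fear to 2.73 ± 0.18 in young control, 2.93 ± 0.20 in old control and 2.96 ± 0.11 in old fear, and to 3.38 ± 0.50 in shock-context and 3.58 ± 0.14 in context. Only young fear lay outside the range of all other arrays for both probes.

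Grm7 A_52_P551544 was higher in all 3 treated young groups than in the young controls they share, by 0.98 ± 0.17 in fear, 0.69 ± 0.17 in context and 0.59 ± 0.17 in shock-context mice. Its context values were -3.16, -2.70, -3.34 and -3.28, and they overlapped those of young fear. In context and shock-context mice this rise turned to -0.21 and -0.22 with normexp correction. A_52_P551129 in contrast read -2.22, -2.13, -2.90 and -2.18 in context mice, at a mean of -2.36 ± 0.36 (SD, n = 4) against -2.21 ± 0.30 in young controls.

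Against young controls, Grm4 showed the widest gap of the 11 probes between the scan runs. It read -4.90, -5.42, -6.10 and -5.72 in context and -5.84, -6.08, -5.12 and -5.31 in shock-context mice, below all 16 arrays of the first run, and its differences from young controls were -1.25 ± 0.26 (adjusted p = 0.000201) and -1.30 ± 0.26 (adjusted p = 0.000155). They were -0.09 and -0.03 with quantile normalization and -0.02 and 0.02 with the deposited values, and passed in neither, so the Grm4 gap depends on the scaling. Grm3 was lower in context mice than in young controls (-0.59 ± 0.23, adjusted p = 0.0261), where the median of all probes was -0.36. That call held in 12 of 19 alternatives and was lost with median scaling (-0.24, adjusted p = 0.43), with the compared arrays alone (0.0669), and without young control array 1 or 2 or context array 1, 2 or 4 taken singly (0.0515 to 0.124, with a change of -0.40 without young control array 2). Grm2 stayed within a narrow range, with group means from -3.01 ± 0.47 (SD) in young control to -2.77 ± 0.27 in old control mice, and no neighbouring means in that order were separated by more than their spread. Grm8 means ran from -1.89 ± 0.04 (SD) in young control to -1.51 ± 0.08 in old fear mice.

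Grm6, a group III gene known from retinal bipolar cells and not among the 6, was read beside them. It was at -0.47 ± 0.41 in young fear mice (adjusted p = 0.352) and at -3.79 ± 0.41 and -4.07 ± 0.41 in context and shock-context mice against young controls, across the scan runs. In context and in shock-context mice, 3 of 4 arrays of each group measured it well above background.

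Genes of the receptors' signalling path were called in both directions in young fear mice, at shares to be read beside the 44.6% of all probes. Each gene was read from its probe of highest mean. Of 14 Gq signalling genes 3 were higher and 4 lower (median change 0.05). Prkca, the gene of a protein kinase C, rose by 1.32 ± 0.15 and Plcb3, a phospholipase C, by 0.74 ± 0.11, while Plcb1, the phospholipase C tied to Grm5 in the hippocampus, fell by 1.60 ± 0.27 and Itpr2, an inositol trisphosphate receptor, by 1.07 ± 0.10. With normexp correction Plcb3 was at 0.23 and did not pass (adjusted p = 0.612).

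Of 13 genes of Gi/o proteins and adenylyl cyclases 7 were higher and 3 lower (median 0.47). The cyclase genes Adcy1 (1.05 ± 0.13), Adcy3 (0.96 ± 0.13) and Adcy5 (0.69 ± 0.13) and the Gi gene Gnai2 (0.99 ± 0.17) rose. Of 14 scaffold and binding partner genes 6 were higher and 4 lower (median 0.14). Homer1, whose product binds group I receptors, rose by 0.95 ± 0.14 and Shank3, which joins Homer to the postsynaptic density, by 1.61 ± 0.19, while Shank1 fell by 1.43 ± 0.14 and Grip1, a PDZ scaffold gene, by 1.11 ± 0.18.

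Among 9 desensitisation genes 3 were higher and 3 lower (median 0.30), with the receptor kinase gene Adrbk2 up by 0.47 ± 0.11 and the G protein regulator gene Rgs7 by 0.30 ± 0.10, the latter not called with normexp correction (0.26, adjusted p = 0.269). The arrestin genes Arrb2 and Arrb1 fell by 1.05 ± 0.16 and by 0.53 ± 0.14, the second with no call in any of 4 other scalings. Among 6 glutamate transporter genes 2 were higher and 2 lower (median 0.38). The vesicular transporter genes Slc17a7 (1.93 ± 0.23) and Slc17a6 (0.99 ± 0.38) rose, the latter also a thalamus marker whose call held in 1 of 4 other scalings (adjusted p = 0.052 with quantile normalization, 0.122 with normexp and 0.0738 with the deposited values). The astrocyte transporter gene Slc1a2 fell by 0.89 ± 0.11, and Slc1a3, at -0.36 ± 0.12, turned to 0.05 with quantile normalization and 0.01 with the deposited values.

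As with Grm5, single probes did not always speak for these genes. Of the 56 listed genes measured, 15 had at least 2 called probes and 7 of those held calls in both directions, among them Adcy1, Slc1a3, Itpr2 and Grip1. For Adcy1, given above as higher, 1 of 4 probes was called higher and 2 lower. For Slc1a3, given above as lower, 2 of 3 probes were called higher and 1 lower. For Itpr2 1 of 5 was higher and 3 lower, and for Grip1 1 of 3 was higher and 2 lower. In old mice 0 of these 56 genes passed after training, and 0 passed between old and young controls or between context and shock-context mice. The shares of all probes called there were 0.126%, 0.547% and 0%, so these counts are no more than the array as a whole gave.

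The genes whose probes most resembled each receptor's probe of highest mean signal over the 16 control and fear arrays were found by Pearson's r among 25957 probes, one of many possible rankings, and are listed as a description. For Grm5 A_51_P465591 they were Trim37 (r = 0.992), Wdr60 (0.987) and Baz2a (0.986). These values rest in part on the 4 young fear arrays, and over the other 12 arrays they were 0.799, 0.829 and 0.71. For Grm3 they were Cdkn2aip (0.928), Rbm15 (0.926) and Lgr4 (0.91).

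For Grm7 A_52_P551129 the closest were Rnps1 (0.994), Sirt2 (0.993) and Dbc1 (0.982). The spots of Rnps1 and Sirt2 lay at row 321, column 45 and at row 316, column 47 of the array, next to that of the Grm7 probe at row 314, column 46, inside the dim region of old control array 2. Without that array the 3 values were 0.98, 0.977 and 0.946. For the remaining receptors the closest were Nfrkb (0.882), Ranbp3 (0.882) and Fyco1 (0.881) for Grm2, Olfr1459 (0.863), Olfr373 (0.824) and Thap1 (0.821) for Grm4, and Gipr (0.815), Mbp (0.808) and Hk2 (0.786) for Grm8. The Nfrkb spot, at row 310, column 16, also lay near that of the Grm2 probe, at row 312, column 11.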

How the data were processed

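Scanner files of 24 arrays were used. Per the file headers, the authors scanned with Agilent Feature Extraction 9.5.3.1, whose processed signal intensity is background-subtracted; per the labels, 600 ng of total RNA per mouse was labelled with Cy3. The authors' deposited table, taken as log2 from its values and with a median of 8.57 in each column, served as an alternative. The submitters' processing notes also name limma.

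Log2 values of the processed signal were set relative to the 75th percentile of their array. Control spots were dropped, outlier spots set to missing, spots of a probe averaged, and a probe was kept if the software marked it well above background on 4 or more of the 24 arrays. Older files carry older gene names, so names and positions come from the newer files (mm9). All 24 arrays were fitted in limma 3.58.1 (R 4.3.3; lmFit, eBayes, 18 residual degrees of freedom). Tests were two-sided and p-values were adjusted by Benjamini-Hochberg across all probes.

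Receptors, marker lists and partner lists were chosen with earlier results of these data known. All member probes are named, Grm6 besides, up to 4 genes of smallest adjusted p per partner list, and the 3 most alike genes per receptor. A further gene that this rule names is not reported here. The spot neighbourhoods were examined after the array values were seen. Of 24 same-numbered pairs of deviations among control and fear arrays, 15 correlated over 0.1 (range -0.422 to 0.646). For these arrays the replicate number is also the slide, and the part of the slide in these correlations was not tested. The main fit used no block, and the replicate block was run as an alternative. With it 21077 probes were called in the young comparison, against 17308 in the main fit. In data simulated for the young comparison (38362 probes), 31 of 50 probes were recovered at a log2 change of 1, 25 of 50 at -1, 7 at 0.5 and 10 at -0.5, and 5 of 38162 unchanged probes were called. Only the 50 probes of each size were changed there, while 44.6% of all probes were called in the real comparison. The adjustment was therefore stricter in the simulation, and its counts do not give the recovery in the real comparison.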

Additional observations from a re-analysis of the deposited data

Results flagged for a closer look

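The difference in training change between the ages was past the threshold for 3 receptor probes by the test of the difference itself: -1.52 for Grm5 A_51_P333441, 1.74 for Grm5 A_51_P465591 and -0.71 for Grm7 A_52_P551544 (16 months minus 3 months, log2).

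In 72 groups of 4 arrays, 1 array stood apart from the other 3 in 6 groups by Dixon's criterion (critical value 0.829), where chance flags about 1 in 20 groups. Old control array 2 gave 3 of these, at -4.90 for Grm5 A_52_P675611 (others -1.74 to -1.43), at -3.99 for Grm7 A_52_P551129 (others -2.09 to -1.94) and at -6.05 for the undetected Grm2 probe A_51_P414219 (others -7.38 to -7.19). Around the Grm2 spot the neighbours were raised on that array too, with a median deviation of 0.72 against 0.20 over the whole array. Young context array 3 was at -2.90 for Grm7 A_52_P551129 and young context array 2 at -1.74 for Grm8. Young shock-context array 3 was at 0.63 for Grm3 (others 0.43 to 0.44).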

How the results depend on the processing

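The count of called receptor probes was 4 in young fear against young control, 3 in the age difference of the training change and 4 in old fear against young fear. With normexp correction it was 2 in the first and 2 in the third, and with 1 probe per gene, which leaves 6 receptor probes, 2, 1 and 1. It reached 6 in the first with the deposited values and 6 in the third with the compared arrays alone. For shock-context against young control (4) it was 8 with median scaling, 1 with normexp, 2 with 1 probe per gene and 9 with the deposited values. For context against young control (6) it was 3 with normexp and 9 with the deposited values. For young fear against context (6) it was 3 with median scaling and 3 with normexp. For young fear against shock-context (7) it was 4 with quantile normalization, median scaling, 1 probe per gene or the deposited values and 3 with normexp. Leaving out 1 array gave 3 to 7 calls there: 3 without young fear array 1 or 2, and 4 without shock-context array 1, 2 or 4. Old fear against old control, old against young control, and context against shock-context stayed at 0 in every alternative.

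Signs turned against a call in 10 cases. Grm7 A_52_P551544 turned with normexp in old against young fear (0.13) and in context and shock-context against young control (-0.21 and -0.22), and with the deposited values in young fear against shock-context (-0.01). Grm7 A_52_P607936 turned with normexp in old against young fear (0.27), and in context against young control it was 0.46 with quantile normalization and 0.49 with the deposited values, and in shock-context against young control 0.47 and 0.50. Grm4 in shock-context against young control was 0.02 with the deposited values. A further 119 turned signs were of changes not called either way. The cause was not tested.

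With the replicate block, which for control and fear arrays is also the slide, 3 receptor probes were called in young fear against young control, 3 in the age difference and 4 in old against young fear. The block ended the call of Grm7 A_52_P551129 (adjusted p = 0.0619). The array-pair block had a consensus correlation of 0.322. Over all probes of the young comparison the median change was -0.27, and it was -0.08 with quantile normalization, -0.13 with median scaling, -0.50 with normexp and -0.04 with the deposited values. The share of rises among calls was 38.5%, and 52.1%, 52.5%, 32.7% and 51.4% in those settings. Signal over background limits Grm2 A_51_P414219, which was above it on 0 of 24 arrays.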
